A study of Mus musculus with 6 samples.

Results

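The genes described here encode the subunits, activators, inhibitor and assembly chaperones of the proteasome, measured by RNA sequencing in the mouse nucleus accumbens. Members were all genes with a symbol of the Psma to Psmg series that had a test status of OK in the deposited table, with 1 row per symbol. The symbols matched 46 genes, of which 44 were members, out of 23479 rows with status OK in all. Psma8, a testis form of an alpha subunit, and Psmb11, the thymus catalytic subunit, matched but were not tested by the authors. Psmd1 and Psmd14 appear only in rows that also name another gene model, and they are given beside the members.

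The tissue came from male C57BL/6 mice aged 11 weeks that received repeated intraperitoneal injections over 1 week, either of saline or of 20 mg/kg cocaine, and were studied 24 h into withdrawal. Each group had 3 pools, and a pool combined both hemispheres of 5 mice. Mice of a cage all received the same injection, so treatment and cage cannot be told apart. The deposited table holds 1 value per gene and group, in FPKM, a fragment number corrected for transcript length and library size, and none per pool, so the spread between pools is not shown for any gene. Depth is unknown.

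The proteasome degrades proteins tagged with ubiquitin. Its 20S core is a barrel of outer alpha rings, which gate the entry, and inner beta rings, which hold the protease sites. The 19S regulatory particle caps the barrel: ATPases of its base unfold substrates and its lid removes the ubiquitin chain. PA28 and PA200 activators can take the place of the 19S cap, and in immune-stimulated cells the catalytic beta subunits are exchanged for immunoproteasome forms. In neurons, proteasome activity contributes to the turnover of synaptic proteins and to synaptic plasticity.

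As a check of the tissue, the 9 markers of striatal projection neurons summed to 3356 FPKM in saline and 3783 FPKM in cocaine, and none was at 0. The choroid plexus marker Ttr fell, at 93.4 FPKM in saline and 9.46 FPKM in cocaine, and the 4 choroid plexus genes summed to 99.9 and 16.1 FPKM. That sum rests on Ttr: the other 3 genes summed to 6.51 and 6.69 FPKM, and none of them was called, with log2 ratios of 0.38 for Clic6, -0.48 for Kl and -3.30 for Folr1, which was under 1 FPKM in both groups. Astrocyte markers summed to 167.1 and 164.3 FPKM and oligodendrocyte markers to 1856 and 1801 FPKM. Endothelial markers summed to 33.4 and 39.2 FPKM, with Slco1a4 called higher and Pecam1 lower, and red blood cell genes to 142.3 and 172.3 FPKM. The part of these differences in the proteasome values was not tested.

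Proteasome transcripts were mostly higher after cocaine. Of the 44 members, 42 had a log2 ratio of cocaine over saline above 0, and 12 were called higher at a q under 0.05 in the authors' deposited table. None was called lower. In bulk tissue, fewer cells of a type and less RNA per cell cannot be told apart. These calls make up 27.3% of the members. Over all rows with status OK, 11.9% were called in either direction, 6.1% higher and 5.76% lower. Among the 14193 genes with a single symbol and a mean of at least 1 FPKM, which serve as background below, 14.6% were called, with 7.46% of the 14193 called higher and 7.18% called lower. The median log2 ratio was 0.22 over the members and 0.04 over the background genes, and 41 of 44 members lay above the background median. Single changes were small: apart from 3 called genes, Psma3, Psme2 and Psmc6, each called member differed by less than 1.5-fold. Of the 29 members whose row is alone in its locus 7 were called, and of the 15 that share a locus with another row 5 were called. No test compares the members with other genes, since genes of 1 pair of group values are not replicates. The ± values are standard errors derived from the deposited test statistic, and the table does not say whether these include variation among pools.

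**Figure D1:**
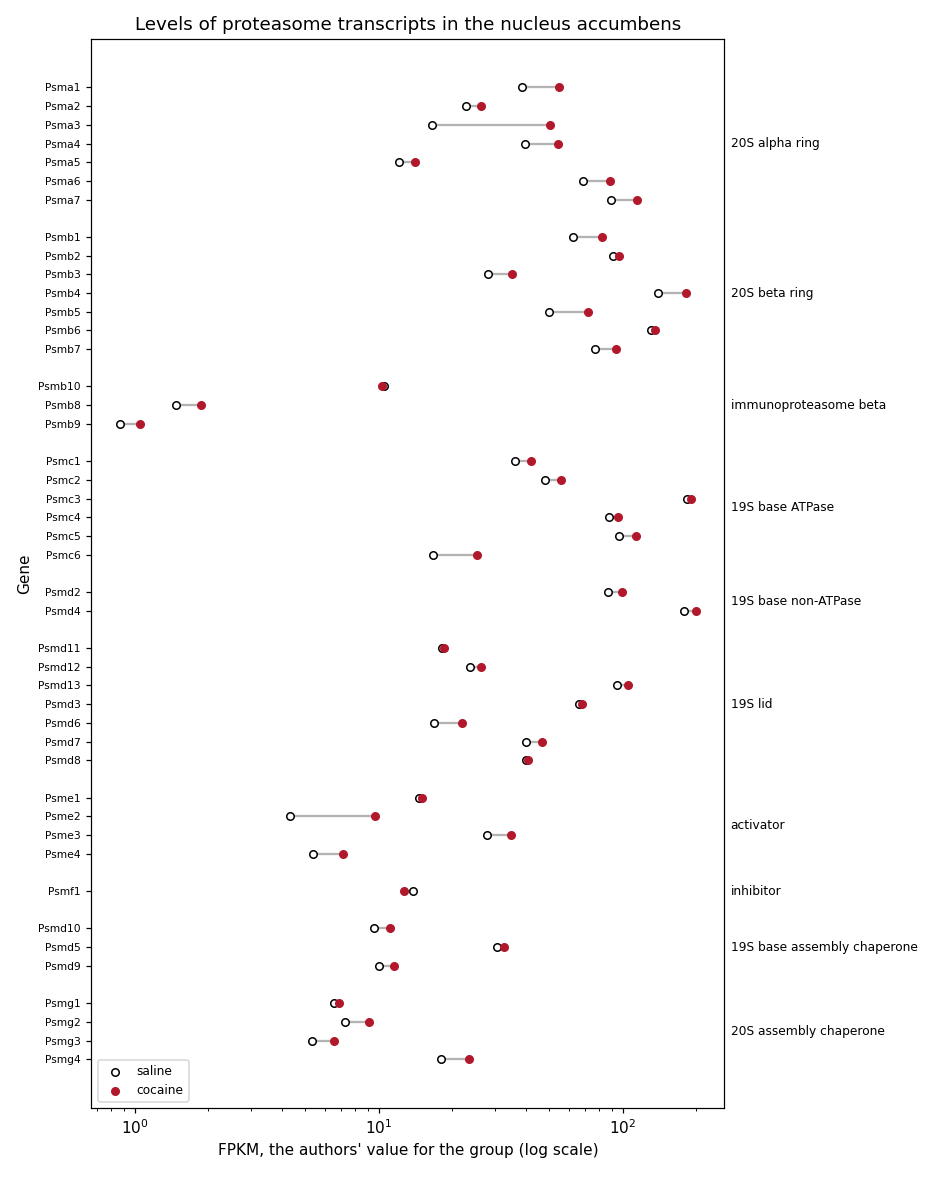
Levels of the 44 proteasome transcripts in FPKM on a log axis, with the saline value as an open circle, the cocaine value as a filled circle and a line between them, grouped by role. The cocaine value lies to the right of the saline value for 42 genes. Psmb10 and Psmf1 are the exceptions, and the longest line is that of Psma3, from 16.5 to 50.5 FPKM.

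The classes did not share the calls evenly. Of the 14 constitutive subunits of the 20S core, 9 (64.3%) were called higher, with a median log2 ratio of 0.35. Of the 15 members of the 19S base and lid, 1 (6.67%) was called higher, with a median of 0.16, although all 15 had a log2 ratio above 0. This 19S share was near the 7.46% of background genes called higher. The rows that name Psmd14 or Psmd1 with another gene model, the first of which was called higher, are not counted here. The median standard error was 0.12 for the core and 0.12 for the 19S genes. Of the 4 activators 2 were called, at a median of 0.37, and of the 7 assembly chaperones 0 were called, at a median of 0.21. With so few chaperones, 0 calls cannot be told from the background share. Without values per pool the difference between classes could not be tested.

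In the alpha ring, 5 of 7 genes were called higher, and all 7 had a log2 ratio above 0. Psma3, the alpha7 subunit, rose 3.06-fold, at 16.5 FPKM in saline and 50.5 FPKM in cocaine (log2 ratio 1.61 ± 0.14), and the authors' deposited table lists its q as 0. This ratio ranked 37 from the top among the 14193 background genes. Its locus, at 72075608 to 72116819 on chromosome 12 in the build named mm9 and NCBIM37, also holds the row 3110056K07Rik, which was at 5.66 and 6.05 FPKM (0.09 ± 0.22) and was not called. Psma1 (alpha6) rose, at 38.5 FPKM in saline and 54.7 FPKM in cocaine (log2 ratio 0.51 ± 0.12), with q at 0.00031 in the authors' deposited table. Psma4 (alpha3), whose N-terminus closes the gate of the barrel in yeast, rose, at 39.5 FPKM in saline and 54.0 FPKM in cocaine (log2 ratio 0.45 ± 0.12), with q at 0.0031 in the authors' deposited table. The locus of Psma4 also holds AY074887, which was under 1 FPKM in both groups (-0.87 ± 1.59). The remaining called alpha genes were already abundant in saline. Psma6 (alpha1) rose, at 68.7 FPKM in saline and 88.4 FPKM in cocaine (log2 ratio 0.36 ± 0.10), with q at 0.0053 in the authors' deposited table. Psma7 (alpha4) rose, at 89.8 FPKM in saline and 113.9 FPKM in cocaine (log2 ratio 0.34 ± 0.10), with q at 0.0044 in the authors' deposited table. Psma2, at 22.8 and 26.2 FPKM, and Psma5, at 12.1 and 14.1 FPKM, had log2 ratios of 0.20 ± 0.13 and 0.22 ± 0.18 and were not called, with q at 0.417 and 0.582 in the authors' deposited table. For Psma5 the level itself is uncertain: Gm8394, which RefSeq lists as its pseudogene, stood at 12.7 and 14.6 FPKM, and fragments of near-identical copies may have been divided between the rows.

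In the constitutive beta ring, 4 of 7 genes were called higher, among them 2 of the 3 that carry protease sites. All 7 had a log2 ratio above 0. Psmb5, the chymotrypsin-like subunit and main target of proteasome inhibitor drugs, rose, at 49.9 FPKM in saline and 71.8 FPKM in cocaine (log2 ratio 0.53 ± 0.11), with q at 5.7e-05 in the authors' deposited table. Psmb7, the trypsin-like subunit, rose, at 76.8 FPKM in saline and 93.6 FPKM in cocaine (log2 ratio 0.29 ± 0.10), with q at 0.039 in the authors' deposited table. Nek6, which shares the locus of Psmb7, was at 11.1 and 9.90 FPKM (-0.17 ± 0.16) and was not called, and a further row there, Gm13586, is listed at 0. Psmb6, the caspase-like subunit, was at 130.5 and 134.9 FPKM (0.05 ± 0.11) and was not called, with q at 0.963 in the authors' deposited table. Structural beta genes rose as well. Psmb4 (beta7), the most abundant core transcript, rose, at 139.1 FPKM in saline and 182.0 FPKM in cocaine (log2 ratio 0.39 ± 0.09), with q at 0.00029 in the authors' deposited table. Psmb1 (beta6) rose, at 62.4 FPKM in saline and 82.1 FPKM in cocaine (log2 ratio 0.40 ± 0.12), with q at 0.013 in the authors' deposited table. Psmb3, at 28.0 and 35.0 FPKM (0.32 ± 0.14), was not called, with q at 0.148 in the authors' deposited table. Psmb2 was at 91.3 and 96.4 FPKM (0.08 ± 0.12) and was not called. Rows for pseudogenes of these genes, whose fragments may have been divided with the parent, were low and not called: Psmb5-ps at 2.15 and 3.15 FPKM (0.55 ± 0.34), Psmb6-ps at 4.50 and 6.14 FPKM (0.45 ± 0.27), and the joint row Gm6787,Psmb7-ps2 at 5.10 and 5.95 FPKM (0.22 ± 0.26). The core transcripts were far from equal in level although their proteins are built in at equal numbers: in saline they ran from 0.216 times the median of the 14 constitutive core genes (Psma5) to 2.48 times (Psmb4). Psma3 stood at 0.294 times that median in saline and at 0.656 times in cocaine. The SD of log2 FPKM over the 14 genes was 1.08 in saline and 0.98 in cocaine.

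None of the 3 immunoproteasome subunits was called, and Psmb8 and Psmb9 were scarce. Psmb8, the counterpart of Psmb5, was at 1.48 and 1.87 FPKM, a log2 ratio of 0.34 ± 0.33, with q at 0.673 in the authors' deposited table. Psmb9, the counterpart of Psmb6 and the only member with a mean under 1 FPKM, was at 0.871 and 1.05 FPKM (0.27 ± 0.58), and its q was 0.946 in the authors' deposited table. Psmb10, the counterpart of Psmb7, was at 10.5 and 10.3 FPKM (-0.04 ± 0.16), with q at 1.04 in the authors' deposited table, where q is not limited to 1. The standard error of Psmb9 exceeded its ratio, and that of Psmb8 was about as large as its ratio. A difference of the size seen in Psmb5 would not have been detectable in either gene. Per kilobase, Psmb8 stood at 2.96% of Psmb5 in saline and 2.60% in cocaine, Psmb9 at 0.667% and 0.778% of Psmb6, and Psmb10 at 13.7% and 11.0% of Psmb7.

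**Figure D2:**
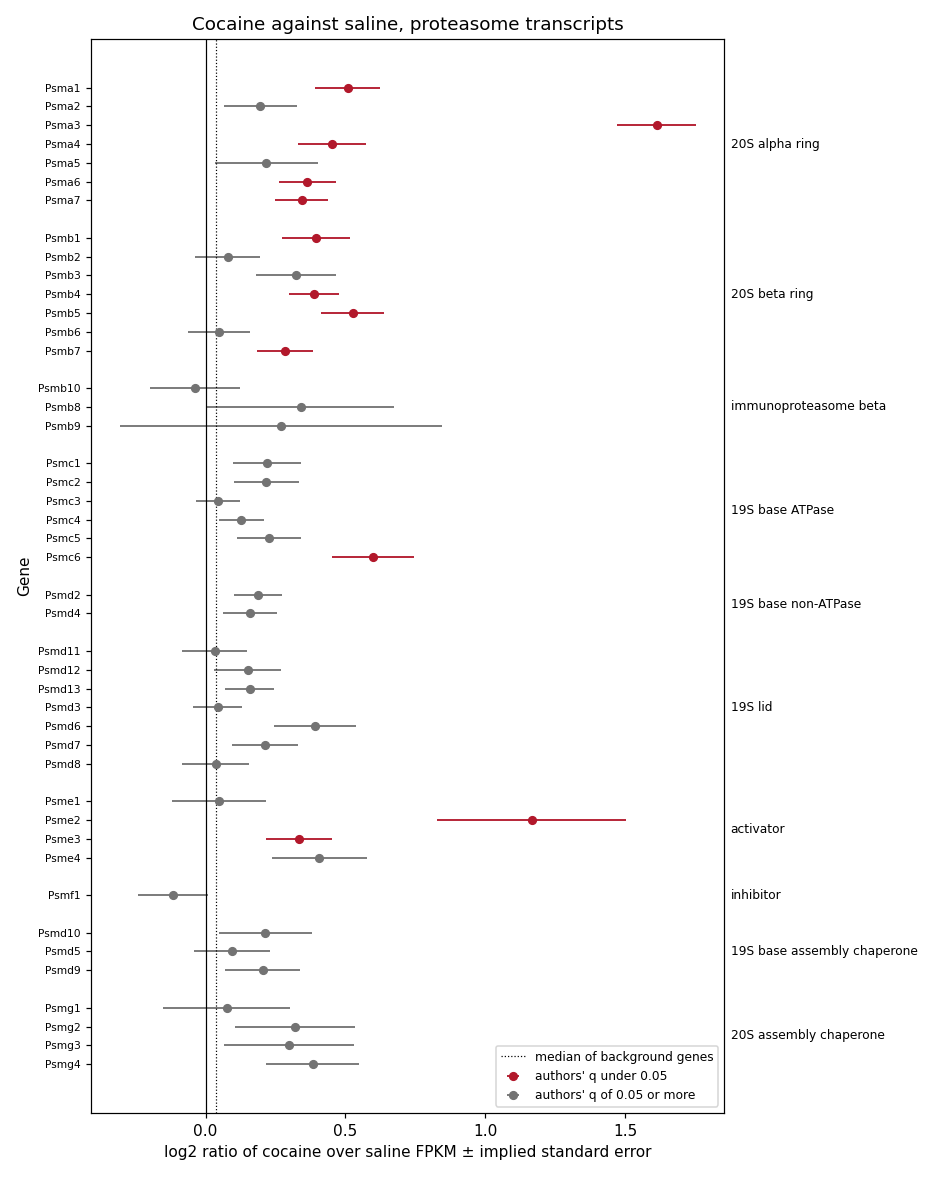
Log2 ratio of cocaine over saline FPKM for the 44 members, with bars for the standard error, red where the authors' q was under 0.05 and grey otherwise. The dotted line is the median of the background genes, 0.04. Red points lie mostly in the alpha and beta rings (9 of 12), Psmc6 is the single one in the 19S base, and the 7 lid genes are all grey.

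In the 19S base, 1 of 6 ATPase genes was called higher, and all 6 had a log2 ratio above 0. Psmc6 (Rpt4) rose, at 16.6 FPKM in saline and 25.2 FPKM in cocaine (log2 ratio 0.60 ± 0.15), with q at 0.00072 in the authors' deposited table. It was the least abundant of the ATPase genes, at 9.02% of Psmc3 in saline and 13.3% in cocaine, although the ATPases form a ring with equal numbers of each. Its locus, at 45949504 to 45969367 on chromosome 14, holds another row, AC154575.1, that is listed at 0 in both groups. Psmc1 (0.22 ± 0.12), Psmc2 (0.22 ± 0.12), Psmc4 (0.13 ± 0.08) and Psmc5 (0.23 ± 0.11) had smaller log2 ratios and were not called. Psmc3 (Rpt5), the most abundant member in saline, was at 184.1 and 189.7 FPKM, a log2 ratio of 0.04 ± 0.08, with q at 0.911 in the authors' deposited table. The scaffold gene Psmd2 (Rpn1) was at 86.9 and 99.0 FPKM (0.19 ± 0.09) and the ubiquitin receptor gene Psmd4 (Rpn10) at 178.0 and 198.8 FPKM (0.16 ± 0.10), and neither was called, with q at 0.161 and 0.362 in the authors' deposited table. The row that names Psmd1 (Rpn2) together with Armc9 was at 59.3 and 64.3 FPKM, with a log2 ratio of 0.12 ± 0.08, and was not called (q of 0.471 in the authors' deposited table).

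None of the 7 lid genes was called, and their log2 ratios ran from 0.03 to 0.39. Psmd6 (Rpn7) came nearest, at 16.8 and 22.0 FPKM (0.39 ± 0.15), with q at 0.0625 in the authors' deposited table. The authors mark genes at a q under 0.1, and so mark this one. On the other side of the threshold lay the activator gene Psme3, at q = 0.044 in the authors' deposited table. Psmd7 (Rpn8), the partner of the deubiquitinase, was at 40.2 and 46.6 FPKM (0.21 ± 0.12), and Psmd13 (Rpn9) at 94.6 and 105.5 FPKM (0.16 ± 0.09). Psmd12 (Rpn5) was at 23.6 and 26.2 FPKM (0.15 ± 0.12). The lowest ratios were those of Psmd3 (0.04 ± 0.09), Psmd8 (0.04 ± 0.12) and Psmd11 (0.03 ± 0.12), the last with q at 1.02 in the authors' deposited table. Relative to the background median of 0.04, Psmd11 lies below 0. The lid's catalytic subunit, the deubiquitinase Psmd14 (Rpn11), shares its row with the gene model AL845291.1. That row, at 61549751 to 61638433 on chromosome 2, rose, at 42.7 FPKM in saline and 64.0 FPKM in cocaine (log2 ratio 0.58 ± 0.11), with q at 4.6e-06 in the authors' deposited table. The locus also holds 5S_rRNA.8, at 0.774 and 2.17 FPKM (1.49 ± 1.45), which was not called. Which of the named genes gave the fragments is not shown, and with that row counted there would be 1 call among 8 lid genes of the symbol series. Shfm1, a further subunit gene outside that series, was at 116.5 and 116.0 FPKM (-0.01 ± 0.13) and was not called.

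Among the activators, Psme2 and Psme3 were called higher, and all 4 had a log2 ratio above 0. Psme2, the beta subunit of PA28 (locus at 56206278 to 56209938 on chromosome 14, with no other row), rose, at 4.31 FPKM in saline and 9.68 FPKM in cocaine (log2 ratio 1.17 ± 0.34), with q at 0.0072 in the authors' deposited table. Psme1, the alpha subunit that forms a mixed ring with it, was at 14.6 and 15.1 FPKM (0.05 ± 0.17) and was not called, with q at 1.02 in the authors' deposited table. Per kilobase, Psme2 thus stood at 29.5% of Psme1 in saline and 64.1% in cocaine. The row 9930111J21Rik1,Psme2b-ps, which names a pseudogene of Psme2 with which fragments may have been divided, was at 7.003 and 7.08 FPKM (0.02 ± 0.21) and was not called. Psme3, the nuclear PA28 gamma, rose, at 27.7 FPKM in saline and 34.9 FPKM in cocaine (log2 ratio 0.33 ± 0.12). Psme4, the PA200 activator, was at 5.37 and 7.11 FPKM (0.41 ± 0.17) and was not called, with q at 0.111 in the authors' deposited table. Psmf1, which encodes the inhibitor PI31, was 1 of the 2 members with a ratio below 0, at 13.8 and 12.7 FPKM (-0.12 ± 0.12), and was not called, with q at 0.714 in the authors' deposited table.

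Since PA28 and the immunoproteasome forms are induced by interferon gamma in many cells, 10 interferon response and antigen presentation genes were read beside them. Of these, 0 were called, beside 14.6% of the background genes. The 10 genes summed to 84.9 FPKM in saline and 100.2 FPKM in cocaine, with no gene at 0. Most of that difference was in B2m, at 53.0 and 67.3 FPKM, and the other 9 genes summed to 31.9 and 32.9 FPKM. The median log2 ratio of the 10 genes was 0.07, and 5 of them had a ratio below 0. Some were low with wide standard errors: Ifit1 was at 0.392 and 0.445 FPKM (0.18 ± 0.50) and Tap1 at 1.45 and 1.26 FPKM (-0.21 ± 0.39). With such errors their lack of a call says little. Of 9 microglia markers 1 was called, Tmem119, from 6.29 to 10.8 FPKM, and the list summed to 185.1 and 181.6 FPKM. The lower sum in cocaine rests on C1qb, at 59.7 and 49.5 FPKM, and the other 8 markers summed to 125.4 and 132.1 FPKM. Of the 9 microglia markers, 4 had a ratio above 0 and 5 below. Their part in the Psme2 result was not tested.

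None of the 7 assembly chaperones was called. Psmg1, Psmg2 and Psmg3, which help to build the alpha ring, were between 5.30 and 7.27 FPKM in saline and between 6.52 and 9.08 FPKM in cocaine, with log2 ratios of 0.07 ± 0.23, 0.32 ± 0.21 and 0.30 ± 0.23. Their q values in the authors' deposited table were 1.00, 0.429 and 0.532. Psmg4 had the highest ratio of the chaperones, 0.38 ± 0.17, at 17.9 and 23.3 FPKM and with q at 0.128 in the authors' deposited table. Of the base chaperones, Psmd5 was at 30.4 and 32.5 FPKM (0.09 ± 0.14), with q at 0.846 in the authors' deposited table. Psmd10 was at 9.57 and 11.1 FPKM (0.21 ± 0.17), with q at 0.533 in the authors' deposited table, and Psmd9 had a log2 ratio of 0.20 ± 0.13. Pomp, the chaperone of beta ring assembly that lies outside the symbol series, was at 38.5 and 46.8 FPKM (0.28 ± 0.14) and was not called.

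Over all genes the log2 ratio moved with transcript length and the share called with abundance, and the members were short. The median length of the longest protein-coding transcript was 1435 nt over the members and 3242 nt over the background genes. Background genes under 1000 nt had a median log2 ratio of 0.19 and those over 4000 nt of -0.08. Between 1000 and 2000 nt, the band that holds most members, the 2176 background genes had a median of 0.12 and 12.9% were called (11.2% higher). In that band 7 of 8 constitutive core genes were called, with a median of 0.38, and 0 of 11 genes of the 19S base and lid, with a median of 0.16. Under 1000 nt 1 of 4 core genes was called, beside 14.9% of the background genes (14.0% higher). There the core median of 0.20 was close to the background median of 0.19. By abundance, 23.0% of the background genes with a mean of 20 to 100 FPKM were called (11.9% higher). In that band 7 of 10 core genes and 1 of 9 genes of the 19S base and lid were called, and 9 of 22 members in all. Over 100 FPKM 2 of 7 members were called, beside 30.9% of the background genes (18.5% higher). At 5 to 20 FPKM 1 of 13 members was called, beside 13.8% of the background genes (6.75% higher). Across the members, Spearman's rho of log2 ratio with length was -0.23 (n = 44 genes that share their libraries), and across the 11629 background genes with a known length it was -0.32. With GC content, the share of G and C letters in the same transcripts, rho was -0.30 across the members and -0.17 across the background genes. The part of length and GC content in the results was not tested.

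**Figure D3:**
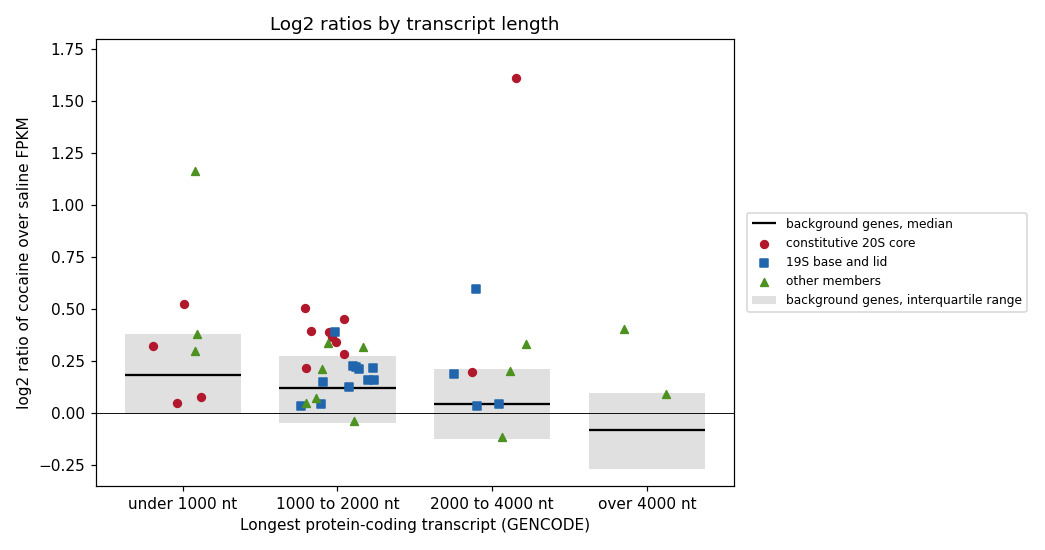
Log2 ratio of cocaine over saline FPKM for the 43 members with a mean of at least 1 FPKM, in bands of transcript length (side-to-side position within a band carries no meaning), over the interquartile range (grey) and median (black line) of the background genes of each band. Between 1000 and 2000 nt, all 8 circles (constitutive core) and 9 of 11 squares (19S base and lid) lie above the background median of 0.12. The circle at the top is Psma3.

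Genes that work with the proteasome but lie outside the symbol series did not move as a block. Of 30 measured, 6 were called, 4 higher and 2 lower, and the median log2 ratio was 0.06. These calls make up 20.0% of the list, beside the 14.6% of the background genes. Of the proteasome-bound enzymes and adaptors, 3 of 7 were called higher, and 6 of 7 had a log2 ratio above 0. The deubiquitinase gene Usp14 rose, at 25.8 FPKM in saline and 34.5 FPKM in cocaine (log2 ratio 0.42 ± 0.11), with q at 0.0018 in the authors' deposited table. The other proteasome deubiquitinase gene, Uchl5, rose, at 6.33 FPKM in saline and 10.1 FPKM in cocaine (log2 ratio 0.67 ± 0.20), with q at 0.0085 in the authors' deposited table. The thioredoxin-like gene Txnl1, whose protein binds the 19S particle, rose, at 8.45 FPKM in saline and 11.6 FPKM in cocaine (log2 ratio 0.45 ± 0.16), with q at 0.042 in the authors' deposited table. Adrm1 (Rpn13), the 19S receptor that recruits Uchl5, was at 32.4 and 36.3 FPKM (0.16 ± 0.10) and was not called. AI314180, the mouse gene for the 26S tether Ecm29, had a log2 ratio of -0.13 ± 0.11.

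Shuttle receptors, which carry ubiquitinated proteins to the proteasome, moved both ways. Ubqln1 rose, at 54.8 FPKM in saline and 70.3 FPKM in cocaine (log2 ratio 0.36 ± 0.08), with q at 0.00028 in the authors' deposited table. Rad23b fell, at 75.2 FPKM in saline and 62.3 FPKM in cocaine (log2 ratio -0.27 ± 0.10), with q at 0.041 in the authors' deposited table. Ubqln2 (-0.30 ± 0.12), Ubqln4 (-0.03 ± 0.11) and Ddi2 (0.01 ± 0.12) were not called. Of the p97 segregase genes, which extract ubiquitinated proteins from complexes, the adaptor gene Nploc4 fell, at 37.3 FPKM in saline and 28.0 FPKM in cocaine (log2 ratio -0.41 ± 0.10), with q at 0.00057 in the authors' deposited table. Its partner Ufd1l (0.14 ± 0.12) and the ATPase gene Vcp (0.21 ± 0.10) were not called. The ubiquitin gene Ubb, at 1157 and 1195 FPKM, and the activating enzyme gene Uba1, at 218.4 and 211.4 FPKM, were not called. The transcription factor gene Nfe2l1 (Nrf1), which drives proteasome genes when proteasome activity is short, was at 100.9 and 96.8 FPKM (-0.06 ± 0.07), and its relative Nfe2l2 at 3.30 and 3.39 FPKM.

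**Figure D4:**
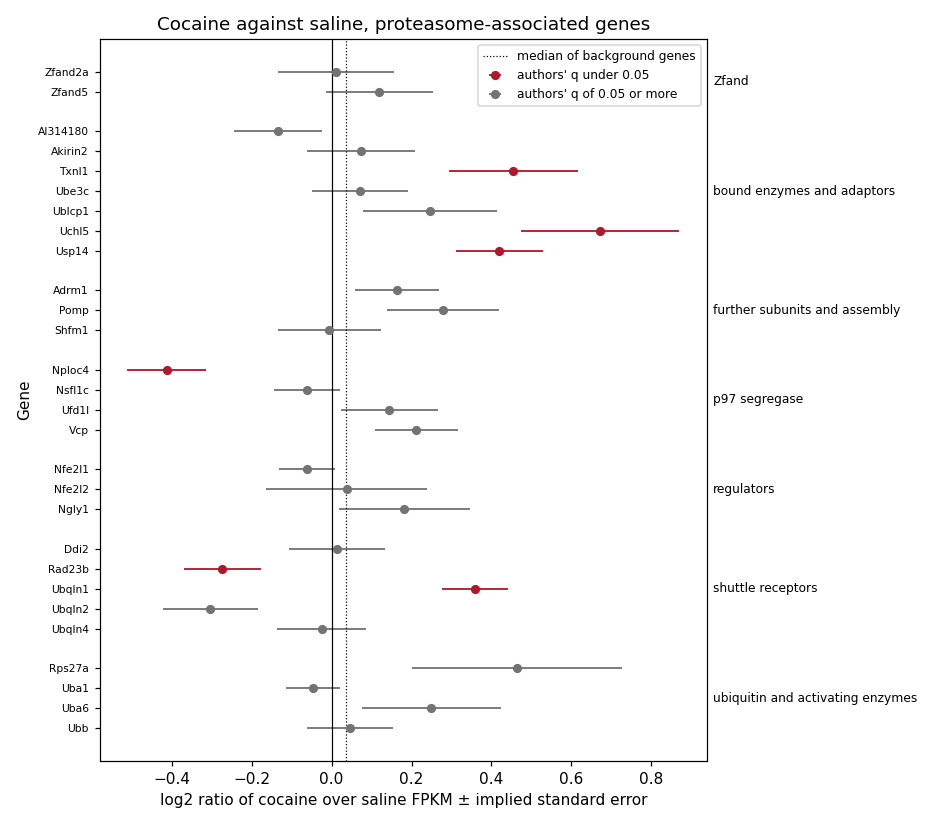
Log2 ratio of cocaine over saline FPKM for 28 of the 30 proteasome-associated genes with bars for the standard error, red where the authors' q was under 0.05. Of the 6 red points, 4 lie to the right of 0 (Txnl1, Uchl5, Usp14 and Ubqln1) and 2 to the left (Nploc4 and Rad23b).

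Promoter sequences were read for what the members share beyond their names. RefSeq promoters (build GRCm38.p6, 250 bases before to 50 after the start, either strand searched) were matched for 37 of the 44 members. The comparison is with all 27025 genes of that promoter set, whether or not expressed here, and not with the background genes above. The letters CCGGAAGT, a site type bound by ETS family factors, were present in 9 of 37 members (24.3%) and in 4.31% of 27025 genes. Of these 9, 5 are among the 12 genes of the 19S base and lid with a promoter and 1 among the 11 constitutive core genes, and 2 of the 10 called members with a promoter hold it. No match of it in the members overlaps a match of another motif searched. The lines below show 5 of the 9 members, those where a match lies wholly before the start, because this motif had the highest share in the members relative to all genes. Capitals mark the match on either strand, and each line reads 5′ to 3′ in the direction of the gene. The matches shown begin at positions -85 (Psmc2), -53 (Psme4), -45 (Psmd6), -29 (Psmc1) and -18 (Psmd12) relative to the start.
Psmc1, chr12:100110153-100110200, plus strand: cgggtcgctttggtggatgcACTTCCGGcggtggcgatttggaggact
Psmc2, chr5:21785170-21785217, plus strand: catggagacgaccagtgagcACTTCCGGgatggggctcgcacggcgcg
Psmd6, chr14:14120963-14121010, minus strand: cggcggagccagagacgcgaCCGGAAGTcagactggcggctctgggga
Psmd12, chr11:107479490-107479527, plus strand: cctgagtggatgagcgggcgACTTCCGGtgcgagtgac
Psme4, chr11:30771702-30771749, plus strand: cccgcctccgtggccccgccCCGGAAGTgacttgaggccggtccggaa

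The core of the antioxidant response element, TGACNNNGC, to which Nfe2l1 and Nfe2l2 bind, was in 6 of 37 members (16.2%) and in 14.0% of all genes. Its stricter form TGACTCAGC, every match of which is also a match of TGACNNNGC, was in 0 of 37 members and in 0.503% of all genes, and CCAAT in 12 of 37 members (32.4%) and 41.1% of all genes. Of the 10 called members with a promoter, 2 hold TGACNNNGC, Psmb5 and Psmc6, whose matches begin at positions -47 and -227. The other holders, Psmb6, Psmd9, Psmd12 and Psme4, were not called. Lines are given for Psmb5 and Psmc6 because both were called higher, and this choice shows no link between the motif and the calls. A match is a run of letters and says nothing of binding in this tissue.
Psmb5, chr14:54618014-54618062, minus strand: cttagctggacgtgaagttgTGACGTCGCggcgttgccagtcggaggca
Psmc6, chr14:45329577-45329625, plus strand: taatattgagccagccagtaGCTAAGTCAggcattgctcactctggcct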

How the data were processed

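Reads were processed with CASAVA, TopHat and Cuffdiff on the mouse builds mm9 and NCBIM37, per the submitters' processing notes; their versions and settings were not given in the sources used here. The authors' deposited table gives 1 FPKM value per gene for saline and for cocaine, together with a deposited p-value, and a q-value and test statistic that were each treated as a score, since q exceeds 1 in places. The header names no unit, and FPKM follows from the Cuffdiff columns. Of 35406 rows, 23479 had status OK. FPKM values scale with the annotated transcript length, and rows that share a locus or sequence may divide fragments.

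Log2 ratios were computed without a pseudocount. The standard error printed is the size of the log2 ratio over that of the statistic, whose sign is opposite to the ratio in 100% of status OK rows with unequal values above 0. A call required status OK and a deposited q under 0.05. No values per pool were given, so no replicate test could be run and p-values were never adjusted over the members alone. The 14193 background genes were status OK rows naming 1 symbol, above 0 in saline and cocaine and averaging 1 FPKM or more, as did 43 of the 44 members. The members and lists were chosen with earlier results of these data known. Named in full, by rule, were called members, the highest and lowest of each class, catalytic subunits, activators, the inhibitor, 20S chaperones, called associated genes and rows sharing a called member's locus. Some items that met this rule or stand in the lists are not reported here. Lengths and GC content came from the longest protein-coding GENCODE M21 transcript, found for 44 of 44 members and 81.9% of background genes. Starts were made 1-based, by which 21 of 21 non-overlapping mitochondrial genes fitted the annotation. Bands of FPKM were chosen after the data were seen. Steps were tested on simulated data in Python 3.11.15 with pandas 2.3.3 and numpy 2.4.6.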

Additional observations from a re-analysis of the deposited data

How the results depend on the processing

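The 12 calls among the members stayed at 9 to 13 under a q under 0.01 or 0.1, recomputed Benjamini-Hochberg adjustment and minimums of 1 or 5 FPKM with readjusted p, and at 13 with the Psmd1 and Psmd14 rows added. Requiring at least 1.5-fold as well left 3 members called (1 in the 20S core, 1 activator), 679 genes called higher and 587 lower over all rows, and 1 higher and 0 lower of the associated genes. Rows alone in their locus left 7 members (5 in the core, 0 in the 19S base), 658 genes higher and 525 lower, and 2 associated genes higher. The lid went from 0 calls to 1 with a q under 0.1, with either FPKM minimum (1 each) and with the Psmd14 row added after the data were seen. With a q under 0.01 the activators held 1 call and the associated genes 1 lower call. The members that lost the call there were Psmb1, Psmb7 and Psme3. These differences follow from the rows or the threshold used. Medians of the members, the classes and the associated genes moved by less than 1 implied standard error under a pseudocount of 1, centring, the mean, summed rows, rows alone in their locus and a minimum of 5 FPKM. That error belongs to single genes and is not the error of a median. Centring takes the same value, 0.04, from every gene, and summed rows left the medians unchanged. No called member changed direction, while the uncalled Psmd11 had a log2 ratio of -0.0043 with centring. No paired analysis was possible because the table holds no values per pool, and for the same reason leaving out single pools was not run. With 1 value per group and unknown depth, counting error cannot be stated, and low genes such as Psmb9 carry wide implied errors.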
